A study of Mus musculus with 6 samples.

Results

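Lilrb4a and Lilr4b are neighbouring mouse genes for receptors of the leukocyte immunoglobulin-like family. They are 2 of the 57010 gene identifiers in the count table, found by symbol (ENSMUSG00000112148 for Lilrb4a, ENSMUSG00000112023 for Lilr4b), and both passed the filter on low counts. They were chosen by their lower counts in the KO libraries, so their KO and WT levels are given here as a description, with no test of their own. Gene expression was measured by mRNA sequencing of CD8 T cells of C57BL/6 mice aged 8 weeks. Naive cells had been sorted from spleen and lymph nodes and then activated for 24 hours with antibodies to CD3 and CD28. The 3 libraries called WT are those of MondoAfl/fl mice, which carry the floxed MondoA gene (Mlxip) and no Cre. The 3 KO libraries came from MondoAfl/flCD4cre mice, in which the CD4 promoter drives Cre in developing T cells, so CD4 and CD8 lineages both lose the gene before they mature. All 6 libraries thus share the floxed allele and the stimulation, Cre was present in KO alone. What Cre itself does and what the loss of MondoA does cannot be told apart.

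Lilrb4a encodes gp49B, the mouse counterpart of human LILRB4 (ILT3). It is a transmembrane receptor with immunoglobulin domains outside the cell and inhibitory tyrosine motifs (ITIMs) in its tail. Once phosphorylated, such motifs recruit phosphatases that damp signals from activating receptors. Lilr4b, called Lilrb4b in newer naming, encodes the sister protein gp49A. The pair is best known from mast cells, macrophages, dendritic cells and NK cells, and gp49B also appears on T cells after activation.

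The ends of both coding sequences are shown because they carry the difference between an inhibitory receptor and a copy without the motifs. Both are read 5′ to 3′ from coding base 841 to the stop codon, from the transcripts Lilrb4a-201 and Lilr4b-201 of GENCODE M21 (GRCm38, plus strand of chromosome 10). Lilr4b-201 spans 51480632 to 51486703 and Lilrb4a-201 spans 51490997 to 51496596, with 9 exons each. Capitals mark the tyrosine codons of the ITIMs in Lilrb4a and the stop codon in Lilr4b.
Lilrb4a: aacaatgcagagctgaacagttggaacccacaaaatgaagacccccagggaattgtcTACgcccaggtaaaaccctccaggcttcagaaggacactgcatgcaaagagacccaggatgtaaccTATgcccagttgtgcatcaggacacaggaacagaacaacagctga
Lilr4b: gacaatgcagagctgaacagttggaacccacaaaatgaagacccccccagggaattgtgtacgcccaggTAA
The coding sequence of Lilrb4a ran to 1008 bases and that of Lilr4b to 912. Up to the first gap of their alignment, at base 881, 846 bases were identical and 35 differed, an identity of 96.0%. The gap was 2 bases long, in Lilrb4a, within the run of c. The tail of Lilrb4a held 2 matches to the ITIM pattern, with tyrosines at codons 300 and 322, and the tail of Lilr4b held 0. A further match, at codon 10 of both genes, lies near the start of the protein and not in the tail.

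How far reads can be assigned to one copy depends on where the copies differ. The 60 coding bases with the most differences, 209 to 268, are shown with the 9 differing positions in capitals.
Lilrb4a: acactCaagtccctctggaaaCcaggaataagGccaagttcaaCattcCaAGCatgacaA
Lilr4b: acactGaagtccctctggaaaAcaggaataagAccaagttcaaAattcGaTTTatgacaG
The longest identical stretch was 126 bases, coding bases 302 to 427, and is given once because it is the same in both genes.
Both: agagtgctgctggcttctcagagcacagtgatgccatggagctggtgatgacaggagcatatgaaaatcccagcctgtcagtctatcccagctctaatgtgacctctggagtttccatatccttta
Of all 50-base windows of the Lilrb4a coding sequence 17.7% occurred unchanged in Lilr4b. The share was 4.51% for windows of 100 bases and 0% for windows of 150 bases. The sources used here do not give the read length.

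The counts depend on the annotation as well. In GENCODE M21 another gene, the read-through model Gm49339 (ENSMUSG00000062593), joins the first exon of Lilr4b to exons of Lilrb4a. Its exons covered 96.0% of the 1381 bases of Lilrb4a-201 but 6.64% of the 1836 bases of Lilr4b-201. Gm49339 had 0 reads in every library, where 3 reads would be 0.115 CPM (counts scaled to library size) in the shallowest library, WT 3. The sources used here do not give whether the annotation used for counting held the same exons, or how reads in exons of more than 1 gene were treated. The effect on the Lilrb4a counts was not tested. The antisense gene Gm40645 shared 103 bases with Lilrb4a-201 and had 4 reads or fewer in each library.

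The targeted gene followed the labels. Mlxip was at 124, 121 and 142 CPM in WT and at 79.5, 92.6 and 86.0 CPM in KO, without overlap. Its log2 fold change was -0.58, with an adjusted p of 0.125 in edgeR's quasi-likelihood test with Benjamini-Hochberg adjustment. The sources used here do not give which exons are floxed, and reads from the others would still be counted.

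Both genes were read deeply enough to measure in every library. Lilrb4a had 1193, 950 and 1052 reads in WT 1 to 3 and 583, 698 and 451 reads in KO 1 to 3. For Lilr4b the WT libraries held 2791, 2248 and 2446 reads and the KO libraries 1256, 1950 and 1249. The total gene counts behind them lay between 26150420 (WT 3) and 34447230 (KO 3).

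The inhibitory copy stood at about 52.0% of its WT level in KO. After scaling of libraries by TMM (trimmed mean of M values), WT 1 to 3 held 34.2, 29.5 and 38.8 CPM of Lilrb4a, and KO 1 to 3 held 18.7, 21.3 and 13.2 CPM. Every KO library lay below every WT library, and the lowest WT level was 1.39 times the highest KO level. WT averaged 34.2 ± 4.64 CPM and KO 17.7 ± 4.15 CPM (SD, n = 3 each). On the log2 scale the fitted difference, KO over WT, was -0.94 (standard error 0.172). In bulk RNA, fewer cells carrying a transcript and less of it per cell cannot be told apart.

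Lilr4b, the copy without tail motifs, stood at 56.9% of its WT level. WT 1 to 3 held 79.9, 69.8 and 90.2 CPM of it, and KO 1 to 3 held 40.4, 59.5 and 36.5 CPM. These groups did not overlap either, but the gap was narrower, the lowest WT level being 1.17 times the highest KO level, that of KO 2. WT averaged 79.98 ± 10.2 CPM and KO 45.5 ± 12.3 CPM (SD, n = 3 each), with a fitted log2 difference of -0.81 (standard error 0.171).

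The sum of both genes is less exposed to how reads were split between the copies. It was 114, 99.3 and 129 CPM in WT 1 to 3 and 59.1, 80.8 and 49.7 CPM in KO 1 to 3. From highest to lowest the libraries came in the order WT 3, WT 1, WT 2, KO 2, KO 1, KO 3. The lowest WT level was 1.23 times the highest KO level, less than the 1.30-fold range within WT and the 1.63-fold range within KO, so the nearest libraries of the groups differed by less than the spread inside each. Fitted as 1 gene, the sum had a log2 fold change of -0.85 (standard error 0.163).

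**Figure D1:**
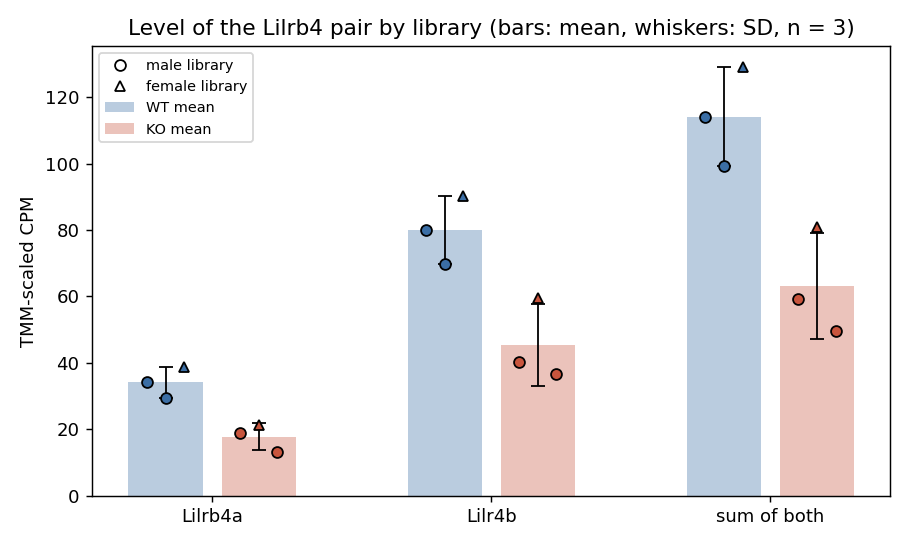
TMM-scaled CPM of Lilrb4a, Lilr4b and their sum in each library, with bars for group means and whiskers for SD (n = 3), blue for WT and red for KO. Circles are male and triangles female libraries. All KO points lie below all WT points of the same gene, and the triangle is the highest point of each group.

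Over all 16439 genes tested, edgeR's quasi-likelihood test with Benjamini-Hochberg adjustment called 2 genes, or 0.0122%, and 0 of the 2 members were among them. At an unadjusted p under 0.05 it called 10.8% of all genes. With DESeq2, which called 1.28% of the genes it adjusted, and in edgeR with low-count genes kept, which called 1.76%, both members were called. Without KO 3 edgeR called 0.472% of genes and 0 of the 2 members. The 3 KO libraries lay clear of the 3 WT libraries in 16.4% of all genes tested, below them in 8.65% and above them in 7.8%. Because the pair was picked for lower KO counts, nothing is read from these calls. The called genes were Txnip and Arrdc4, known MondoA targets. Txnip fell from 222 ± 9.32 CPM to 76.6 ± 3.40 CPM (SD, n = 3 each).

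The split of reads between the copies was nearly constant in WT and varied in KO. Lilr4b took 70.1%, 70.3% and 69.9% of the pair's reads in WT 1 to 3, a mean of 70.1% ± 0.187 (SD, n = 3). In KO 1 to 3 it took 68.3%, 73.6% and 73.5%, a mean of 71.8% ± 3.04 (SD, n = 3). The exact (Clopper-Pearson) 95% binomial interval was 66.1% to 70.4% in KO 1, 71.9% to 75.3% in KO 2 and 71.3% to 75.6% in KO 3. KO 1 lay below the 3 WT libraries and the other 2 KO libraries above them, so the groups overlapped. These intervals cover counting error only.

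**Figure D2:**
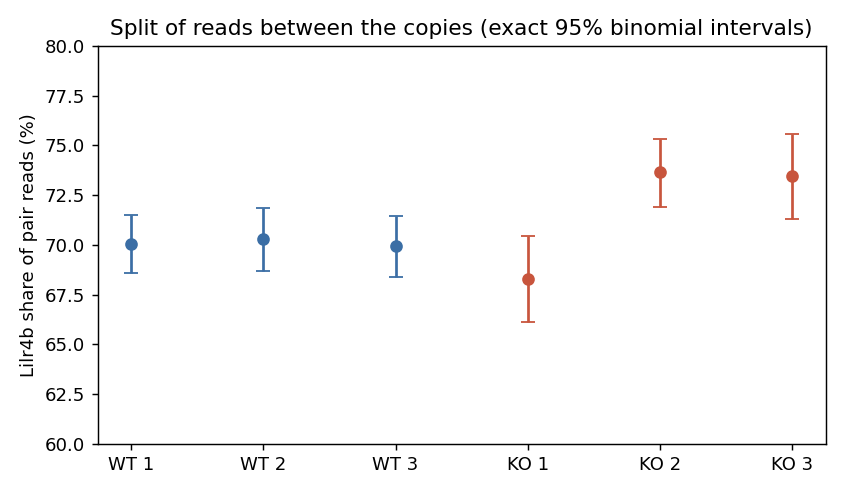
Lilr4b reads as a percentage of the reads of both copies in each library, with exact 95% binomial intervals, WT in blue and KO in red. The axis runs from 60 to 80%. The WT libraries sit together near 70.1%, while KO 1 lies at 68.3% and KO 2 and KO 3 lie near 73.5%.

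Lilr4b was also the more abundant copy per length. Divided by the length of the transcripts above, its level in WT was 43.6 ± 5.55 CPM per kilobase, against 24.7 ± 3.36 for Lilrb4a (SD, n = 3 each). In KO the levels were 24.8 ± 6.70 and 12.9 ± 3.00 CPM per kilobase (SD, n = 3 each). Lilr4b was the higher of the copies in 6 of 6 libraries. Because Gm49339 overlaps most of Lilrb4a and little of Lilr4b, this order is one of counted reads and may not be one of transcripts.

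Within each genotype the library from a female mouse held the most of the pair. The labels do not give the sex. Xist had 19997 reads in WT 3 and 21890 in KO 2 but 58 or fewer in the other 4, which instead had at least 10332 reads over 4 Y-linked genes. In the male libraries the sum of the pair was 114 and 99.3 CPM in WT and 59.1 and 49.7 CPM in KO, so KO stood at 51.0% of WT. The female libraries, 1 of each genotype, had 129 CPM in WT and 80.8 CPM in KO, or 62.7%. With sex as a term, added after these values were seen, the sum was higher in female libraries by 0.42 on the log2 scale with a standard error of 0.106, and edgeR's adjusted p of 0.379 missed the threshold. In the same fit the KO to WT log2 fold change of the sum was -0.87 with a standard error of 0.102. That fit called 0.0365% of genes, Lilr4b among them and Lilrb4a not. Nothing is read from these calls either, since the pair was picked for lower KO counts.

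**Figure D3:**
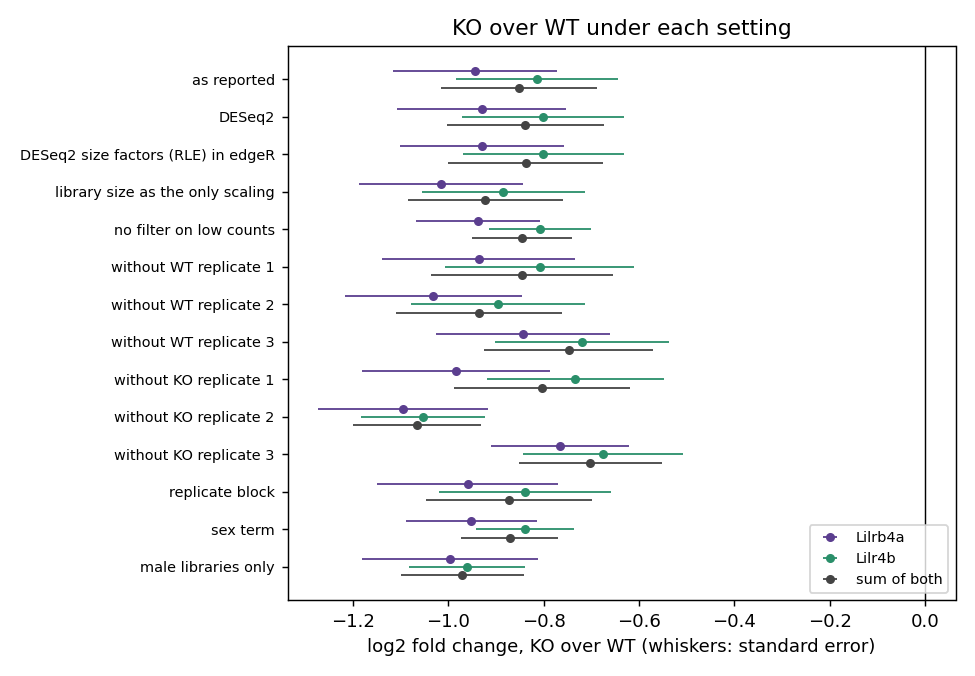
Log2 fold change of KO over WT (horizontal axis, whiskers are standard errors) for Lilrb4a in purple, Lilr4b in green and their sum in grey, under the reported setting and 13 alternatives. All values lie below 0. Those for the sum run from -1.07 without KO 2 to -0.70 without KO 3.

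Leaving out 1 library moved the sum most in KO. Without KO 2, the female KO library, its log2 fold change was -1.07, and without KO 3 it was -0.70. Lilr4b went from -1.05 without KO 2 to -0.68 without KO 3, and Lilrb4a from -1.09 to -0.77. In the male libraries alone the values were -0.997 for Lilrb4a, -0.96 for Lilr4b and -0.97 for the sum.

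The sorted cells carried the markers of CD8 T cells, with Cd8a between 456 and 687 CPM and all 6 markers of the list tested. All 6 had a positive log2 fold change, with a median of 0.19. In 2 of them, Cd3e and Trac, or 33.3%, all KO values were above all WT values, against 7.8% of all genes tested. Other cells that make the pair could also add reads, so their markers were summed in each library. The 9 dendritic cell markers summed to 154, 72.4 and 174 CPM in WT 1 to 3 and to 58.4, 96.7 and 90.7 CPM in KO 1 to 3. The 6 of them that were tested were lower in KO on average (median log2 fold change -0.69), and H2-Aa, an MHC class II chain, had -0.71. Most of the sum in each library came from H2-Aa and H2-Ab1, both MHC class II chains. By this sum WT 2 held less than KO 2 and KO 3. The pair was higher in WT 2 than in either. WT 1 and WT 3 were high in both. Of the 6 tested, Zbtb46 alone had groups that did not overlap, as was so with KO lower in 8.65% of all genes tested. Its lowest WT value was 8.11 CPM, in WT 2, and its highest KO value was 7.81 CPM, in KO 2. Flt3, Itgax and H2-Ab1 had log2 fold changes of -0.79, -1.05 and -0.67, each with overlapping groups. Among the untested markers Cd209a was at 0 in every library, and Xcr1 had 18 reads or fewer in each.

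Summed markers of the other myeloid cells overlapped between the groups. The 12 monocyte and macrophage markers summed to between 232 and 273 CPM in WT and between 234 and 277 CPM in KO, most of it from Ctss, a lysosomal protease that lymphocytes also make. Of the 8 tested, 6 were lower in KO on average (median log2 fold change -0.52). Of the 8, Adgre1 alone (12.5%) had all KO values under all WT values, against 8.65% of all genes tested. It was at 1.60, 1.06 and 1.95 CPM in WT and at 0.804, 0.916 and 0.410 CPM in KO. Mpeg1 and Spi1 had log2 fold changes of -0.45 and -0.66, and Cd68 and Ctss of 0.11 and 0.14, all with overlapping groups. Lyz2 and Csf1r, defining genes of the lineage, had at most 12 and 27 reads in a library. Csf1r had 11, 2 and 27 reads in WT and 3 in each KO library. Of the 8 mast cell and basophil markers Fcer1a, Mcpt4 and Tpsb2 were at 0 in every library, Cpa3 had 7 reads or fewer, and nearly all of the sum was Kit (42.9 to 53.8 CPM in WT, 35.5 to 53.9 CPM in KO). The 6 neutrophil markers summed to at most 4.65 CPM, and Retnlg was at 0.

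Markers of other lymphoid cells were mostly lower in KO on average. The 7 NK markers summed to between 80.1 and 93.9 CPM in WT and between 89.7 and 111 CPM in KO, mostly from Eomes, which activated CD8 T cells make too. The sum and the list's median differ in sign: 4 of the 5 tested NK markers were lower in KO, with a median log2 fold change of -0.75. The 5 B cell markers summed to 67.1, 51.0 and 86.8 CPM in WT 1 to 3 and to 62.8, 51.8 and 26.4 CPM in KO 1 to 3. The 4 markers of CD4 and regulatory T cells summed to between 13.7 and 26.2 CPM in WT and between 9.52 and 15.5 CPM in KO. All 5 B cell markers and all 4 markers of CD4 and regulatory T cells had a negative log2 fold change, with medians of -0.42 and -0.66. All KO values were under all WT values in 2 of the 5 tested NK markers (40%) and 1 of the 5 B cell markers (20%). The same held for 2 of the 4 markers of CD4 and regulatory T cells (50%), against 8.65% of all genes tested. The marker lists were chosen with earlier results of these data known. The part of any of these cells in the pair's level was not tested.

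**Figure D4:**
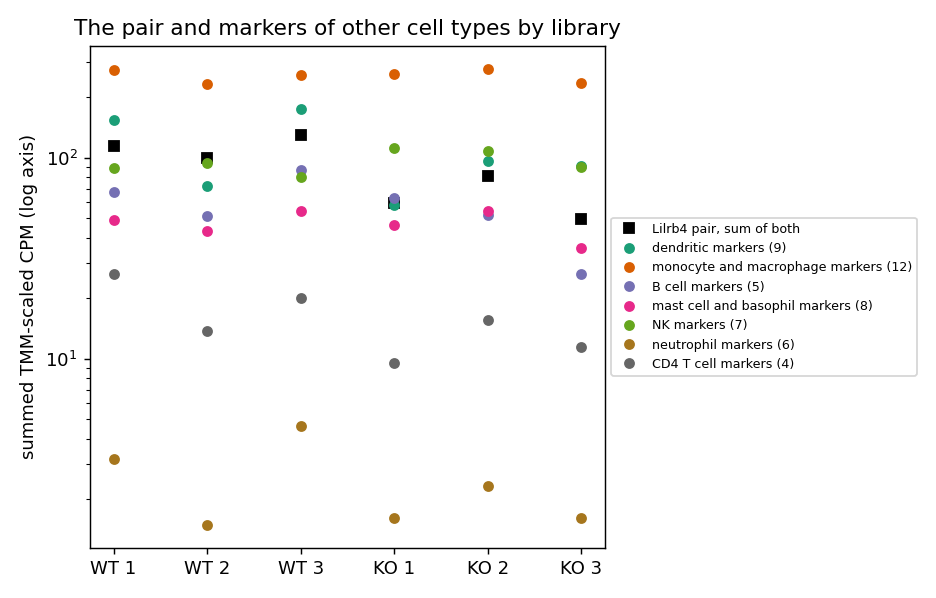
Summed TMM-scaled CPM (log axis) of the receptor pair (black squares) and of marker lists of 7 other cell types (coloured circles, list size in brackets) in each library. Dendritic markers (green), mostly H2-Aa and H2-Ab1, are highest in WT 1 and WT 3, at 154 and 174 CPM. They are lower in WT 2 (72.4 CPM) than in KO 2 and KO 3. The pair is at 99.3 CPM in WT 2 and lower in all KO libraries.

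The genes around the pair were close to silent. The nearest coding gene on either side, Sim1 and Fam162b, and the noncoding neighbours Gm46189 and Gm46224 had between 0 and 12 reads in a library, and the pseudogenes Gm5040 and Gm48484 had 0. None was tested. RefSeq (GRCm38.p6) gives a start site for Lilr4b, and the 250 bases before it are shown because the copies were low together in KO and a MondoA site would be sought there. They lie on the plus strand at chr10:51480362-51480611.
Lilr4b: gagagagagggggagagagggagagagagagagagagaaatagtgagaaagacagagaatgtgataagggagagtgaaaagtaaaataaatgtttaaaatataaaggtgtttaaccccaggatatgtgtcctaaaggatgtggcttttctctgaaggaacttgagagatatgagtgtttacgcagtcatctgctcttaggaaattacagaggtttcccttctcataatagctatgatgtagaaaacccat
The E-box CACGTG, the core of sites bound by MondoA and MYC family proteins, had 0 matches on either strand in it. That motif occurred in 6.02% of 32851 promoters cut to the same length, that of Arrdc4 among them (1 match) and that of Txnip not. The AP-1 motif TGANTCA (in 6.75% of promoters) and the ETS-type motif GAGGAA (in 23.3%) also had 0 matches. No match says only that these letters are not in this window.

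Signalling partners of inhibitory receptors showed small differences. Of 73 tested genes in the 7 lists around the pair, edgeR called 0, against 0.0122% of all genes, while 25 had an unadjusted p under 0.05, against 10.8% of all genes, and DESeq2 called 5, against 1.28%. The lists were chosen with earlier results of these data known, so nothing is read from shares above those of all genes. The 10 kinases, phosphatases and adaptors that act at ITIMs had a median log2 fold change of 0.048 in KO over WT, beside -0.016 for all genes tested, with 0 called, 1 at an unadjusted p under 0.05 and 0 called by DESeq2. Inpp5d, which encodes the lipid phosphatase SHIP-1, was at 153, 130 and 165 CPM in WT and at 114, 138 and 132 CPM in KO. Lck, the kinase that phosphorylates such motifs in T cells, averaged 564 ± 55.4 CPM in WT and 609 ± 13.6 in KO (SD, n = 3 each). Dok2, an adaptor that restrains Ras signalling, had a log2 fold change of 0.25. Its groups did not overlap, as was so with KO higher in 7.8% of all genes tested. Lyn, the corresponding kinase of myeloid and B cells, had -0.43.

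Adaptors of activating receptors and reported binding partners were lower in KO on average more often than higher. Of the 4 adaptors 3 were lower (median log2 fold change -0.35). EdgeR and DESeq2 called 0 of them, and 1 had an unadjusted p under 0.05 in edgeR's test. Cd247, the zeta chain of the T cell receptor, averaged 230 ± 8.79 CPM in WT and 267 ± 13.0 in KO (SD, n = 3 each). Its groups did not overlap, as was so with KO higher in 7.8% of all genes tested. Tyrobp (DAP12), an adaptor of NK and myeloid receptors, was at 1.72 ± 0.624 and 0.961 ± 0.335 CPM, and Hcst (DAP10) had a log2 fold change of -0.16. Of the 5 genes of reported binding partners 4 were lower on average (median -0.28), with 0 called by edgeR, 2 at an unadjusted p under 0.05 and 0 called by DESeq2. Over all genes these shares were 0.0122%, 10.8% and 1.28%. Itgb3, the beta chain of the integrin that binds gp49B, was at 28.7, 33.5 and 30.9 CPM in WT and at 13.7, 23.8 and 23.3 CPM in KO. These groups did not overlap, as was so with KO lower in 8.65% of all genes tested. The log2 fold change of -0.61 had an adjusted p of 0.365 in edgeR's test. Its alpha chain Itgav had 0.011. Alcam, an adhesion molecule, had -0.71, with WT 2 (8.26 CPM) inside the KO range, and Apoe, a lipid carrier, had -0.11.

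Genes of the ITIM receptor list were lower in KO on average more often than higher. Whether their reads came from the CD8 T cells or from other cells was not tested. Of 20 tested, 15 had a negative and 5 a positive log2 fold change, with a median of -0.56. EdgeR called 0 and 8 had an unadjusted p under 0.05, against 10.8% of all genes. DESeq2 called 2, Klrc1 and Klre1, against 1.28% of all genes. The list was chosen with earlier results of these data known, so a share above that of all genes may be partly built in. In 5 of the 20, or 25.0%, all KO values were under all WT values, against 8.65% of all genes tested. The 5 were Klrc1, Klre1, Klrg1, Cd300lf and Siglece. Of these, Klrg1, Cd300lf and Siglece were scarce, with at most 87, 24 and 29 reads in a library. Klrc1, which encodes the lectin-like receptor NKG2A, was at 18.2, 13.2 and 20.4 CPM in WT and at 10.5, 7.75 and 6.11 CPM in KO. Klre1, a related receptor that the NK list also holds, has no ITIM of its own and is known to pair with a partner chain that has them. It was at 4.12, 3.17 and 5.05 CPM in WT and at 1.09, 1.77 and 1.23 CPM in KO. Klrg1 was scarce, at 1.17, 0.559 and 3.21 CPM in WT against at most 0.293 CPM in KO. Pecam1, an adhesion receptor with ITIMs, went the other way (log2 fold change 0.29).

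Few relatives of the pair were read often enough to test. Of 10 symbols listed for the paired immunoglobulin-like receptors and LILR genes 5 matched the names used and 2 were tested. Pirb, an inhibitory relative, was at 4.44, 2.14 and 7.04 CPM in WT and at 2.22, 3.39 and 3.51 CPM in KO, and the groups overlapped. Lair1, a collagen receptor, was at 3.36 ± 0.518 and 3.11 ± 0.466 CPM (SD, n = 3 each). EdgeR and DESeq2 called neither, and 0 had an unadjusted p under 0.05.

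Co-inhibitory and effector genes of T cells also had more negative than positive differences. Of the 14 tested genes of the co-inhibitory list 10 were lower and 4 higher (median -0.29), with 0 called by edgeR, 2 at an unadjusted p under 0.05 and 1, Havcr2, called by DESeq2. Over all genes 10.8% had such a p, so 2 of 14 is near the background, and DESeq2 called 1.28%. Havcr2 (TIM-3) was at 6.76, 2.89 and 11.9 CPM in WT and at 2.70, 3.08 and 2.78 CPM in KO, so WT 2 lay inside the KO range. Pdcd1 (PD-1) had a log2 fold change of -0.58 and Ctla4 of 0.12. Of 23 tested effector genes 20 were lower and 3 higher (median -0.59), with 0 called by edgeR, 12 at an unadjusted p under 0.05 and 2, Id2 and Klrk1, called by DESeq2. Those shares over all genes were 10.8% and 1.28%. In 7 of the 23, or 30.4%, the KO libraries lay below WT without overlap, against 8.65% of all genes tested. Because both lists were chosen with earlier results of these data known, nothing is read from such an excess.

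The order of libraries in the named effector genes matched that of the pair only in part. Within WT, Gzma and Id2 had the pair's order of WT 3, WT 1, WT 2, and Klrk1 and Gzmb did not. Within KO, Gzmb had the pair's order of KO 2, KO 1, KO 3, and Gzma, Id2 and Klrk1 did not. Gzma, granzyme A, was at 17.3, 10.1 and 61.1 CPM in WT and at 5.88, 7.14 and 9.21 CPM in KO, with WT 3 far above the rest. Id2, a regulator of effector differentiation, was at 42.7, 29.7 and 46.6 CPM in WT and between 26.2 and 27.2 CPM in KO. Klrk1 (NKG2D) was at 26.1, 22.2 and 24.2 CPM in WT and at 8.71, 13.2 and 18.05 CPM in KO, with KO 3 highest, where the pair was lowest. Gzmb, granzyme B, averaged 296 ± 27.1 CPM in WT and 288 ± 30.4 in KO (SD, n = 3 each).

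**Figure D5:**
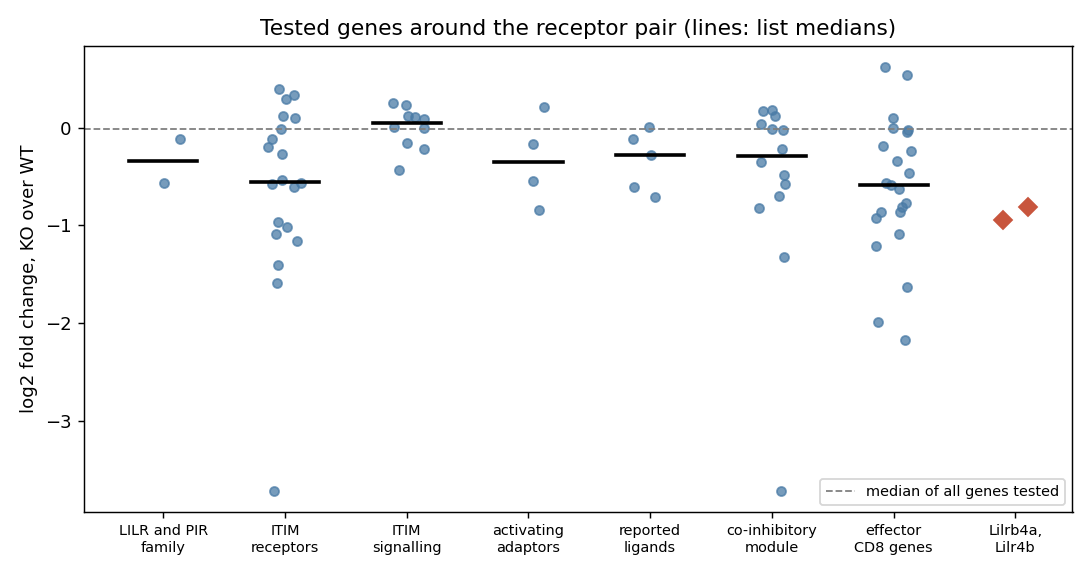
Log2 fold change of KO over WT for each tested gene of 7 lists (blue points, with a black line at each list's median) and for the pair (red diamonds). The dashed line is the median of all genes tested, -0.016. Medians run from -0.59 for effector genes to 0.048 for ITIM signalling genes.

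The genes most like the sum of the pair over the 6 libraries were found by the root mean square difference of centred log2 CPM, among the 12943 tested genes averaging 1 CPM or more. Cd36, a scavenger receptor for lipids, was nearest at 0.0960, followed by Wdr78 (0.113), Lacc1 (0.120), Mir155hg (0.134) and the predicted gene Gm10571 (0.142). The median over all genes compared was 0.523. Cd36 was at 3.32, 2.55 and 3.95 CPM in WT and at 1.54, 2.47 and 1.43 CPM in KO, the pair's order of libraries in both groups. Mir155hg, the host transcript of miR-155, was at 33.9, 30.5 and 32.7 CPM in WT and at 19.3, 23.4 and 16.9 CPM in KO. It had the pair's order of libraries within KO but not within WT, where WT 1 was highest. The other 3 had means of at most 6.04 CPM in either group. Likeness to a pair chosen for lower KO counts brings a lower KO level with it, so that direction is no finding for these genes.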

How the data were processed

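The authors deposited raw read counts (whole numbers, 1 row per Ensembl gene) for 3 WT and 3 KO libraries. Per the submitters' processing notes GRCm39, HISAT2, Subread and featureCounts were used. The sources used here do not give versions, annotation release, strand setting or how reads fitting several places or genes were counted. Per the labels' protocols, RNA was isolated with Trizol and a Vazyme mRNA kit was used.

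Symbols came from GENCODE M21, which matched 52029 of 57010 identifiers. That annotation is on GRCm38, so the printed positions are those of GRCm38 and not of the build used for counting. Genes were kept by filterByExpr (minimum count 10, minimum total 15) and libraries scaled by TMM. KO and WT were compared with edgeR 4.0.16 in R 4.3.3 (quasi-likelihood test, two-sided, group as the only term, Benjamini-Hochberg over 16439 genes, threshold 0.05). Standard errors are the log2 fold change divided by the square root of F. The sum of the pair replaced both rows in a second fit. DESeq2 1.42.0, other scalings, no filter, each library left out and a replicate block were the alternatives, with sex added after the data were seen. Coding sequences were aligned with Biopython 1.88, and an ITIM was matched in frame as S, I, L or V, any residue, Y, any pair of residues, then I, L or V. The fits were tested on simulated counts.

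The members and lists were chosen with earlier results of these data known. Named are the members, Mlxip, Txnip, Arrdc4, the neighbours, up to 3 genes of smallest p and the most abundant per list, up to 3 abundant markers per marker list, and the 5 nearest genes. Other genes named were chosen after their values were seen. The labels do not say that each library came from its own mouse. Each group held libraries of both sexes, so at least 2 sources, but libraries of the same sex and group may share one, and p-values measure only the spread between these samples. No replicates matched within sampling noise (chi-square per gene 16.0 to 40.4 over 12177 genes).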

Additional observations from a re-analysis of the deposited data

How the results depend on the processing

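The log2 fold changes of Lilrb4a, Lilr4b and their sum stayed below 0, and moved by less than 1 SD of the replicates, in all 13 alternatives. With 1 library left out a larger move was hardly possible, since the SD comes from the same libraries. Those fits are therefore no check of stability by that measure. For Lilrb4a, Lilr4b and the sum the ranges with 1 library left out were -1.09 to -0.77, -1.05 to -0.68 and -1.07 to -0.70. The difference in Lilr4b share, KO minus WT, was 1.71 percentage points, between 0.793 and 3.46 with 1 library left out and 1.92 per kilobase. The number of genes called was 2 in the reported fit, 153 with DESeq2, 511 without a filter on low counts, 6 with sex as a term (an alternative chosen after seeing the data) and between 2 and 80 with 1 library left out, the 80 being without KO 3. Genes called in the lists around the pair numbered 0 in the reported fit, 5 with DESeq2, 19 without the filter and between 0 and 3 with 1 library left out. The 3, without KO 3, were Ccl5, Klrk1 and S100a6, and the cause was not tested. The 19 without the filter included Ifng, whose groups overlapped. Its adjusted p in edgeR's test was 2.2e-05 there and 0.69 in the reported fit. Calls without the filter thus need not mean a difference beyond the spread between libraries. The replicate numbers showed no sign of pairing: deviations of WT and KO libraries of the same number correlated at -0.0057, -0.19 and -0.047. The highest correlation, 0.258, was that of WT 3 with KO 2, both female. Numbers 2 and 3 each join a male and a female library, so these values cannot settle whether the numbers pair the samples. With a replicate block edgeR called 2 genes, and the log2 fold changes were -0.96 for Lilrb4a, -0.84 for Lilr4b and -0.87 for the sum. With 3 libraries a group and 451 to 2791 reads per member, the spread between libraries rather than counting limits these values.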
